A study of Triticum aestivum with 3 samples.

Results

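A set of 55 wheat genes differed at least 2-fold between libraries that were meant to be alike. They were the genes whose level in replicate 1 was at least 2 times that in replicate 2, among the 11222 genes (of 165276 listed) with a median of 10 to under 500 TPM over the replicates. TPM is a transcript's estimated read count divided by its usable length and scaled so that each library has the same total, and here the values were summed over the transcripts of a gene. The 55 genes were 0.490% of the 11222. The reverse ratio, replicate 2 at least 2 times replicate 1, was met by 60 genes, or 0.535%. Which of the 2 sets was larger depended on the scaling. Dividing each library by its median over the window gave 61 genes and 48 reverse genes. Estimated counts scaled to the library total gave 68 and 45. The sets of 55 and 60 genes were chosen by the TPM values of replicates 1 and 2 and by the median TPM, so the ratio between replicates 1 and 2 is given as a description only. The median also limited replicate 3. With the lower of replicates 1 and 2 under 10 TPM, a gene passed only if replicate 3 had at least 10 TPM. With the higher at 500 TPM or more, replicate 3 had to be under 500 TPM. The rule used nothing else of replicate 3, and it did not use the transcript length, the confidence class, the chromosome or the depth of counting.

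The 3 libraries came from shoots of Chinese Spring, the bread wheat cultivar behind the reference genome. They are labelled as WT bioreplicates, and no treatment is given. The seedlings had grown for 12 days on agar plates under long days at 18 °C, after a cold period in the dark, while a second label gives 14 days. Poly(A) RNA was sequenced in directional libraries. There was a single condition, so that no test between groups could be made, and the replicates show only how far libraries of 1 condition differ.

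Bread wheat is a hexaploid with subgenomes A, B and D, and most of its genes are present as homoeologs, that is, as similar copies on the corresponding chromosomes of the subgenomes. A read that fits several copies is divided among them by the quantification, so that a short gene with near-identical copies can gain or lose estimated reads to its relatives. The annotation sorts genes into high-confidence models and low-confidence models, and marks the low-confidence ones by LC at the end of the identifier. Low-confidence models include many fragments and copies with little support from known proteins. The identifier also gives the chromosome and, within each confidence class, the order along it. The tables used here hold no gene names, so the genes are given by identifier and without a function. For the same reason the tissue could not be checked against marker genes.

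Replicates 1 and 2 were the closest pair of libraries. The estimated counts summed to 67470696 to 76337649 per library. In replicate 3 the median over the 11222 genes was 13.5 TPM, against 19.1 TPM in replicate 1 and 19.8 TPM in replicate 2, and the 10 most abundant transcripts took 26.5% of all TPM there, against 19.6% and 19.2%. By the same 2-fold rule, 15.8% of the 11222 genes were higher in replicate 1 than in replicate 3 and 2.02% were lower. Replicate 2 gave 18.2% and 1.94% against replicate 3. With each library divided by its own median over these genes, the shares were 4.10% and 5.36% for replicate 1 and 3.96% and 5.24% for replicate 2. In whole shoots, fewer cells of a type and less RNA per cell cannot be told apart.

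The 55 genes had a median level of 87.9 TPM in replicate 1, 28.5 TPM in replicate 2 and 50.9 TPM in replicate 3. The range was 14.2 to 905 TPM in replicate 1, 0 to 327 TPM in replicate 2 and 10.9 to 389 TPM in replicate 3. Together they summed to 11898 TPM in replicate 1, 3500 TPM in replicate 2 and 7121 TPM in replicate 3. The 60 reverse genes had median levels of 15.1, 39.3 and 12.9 TPM in replicates 1, 2 and 3. The genes high in replicate 1 were therefore the more abundant set. A median of at least 100 TPM was reached by 21 of the 55 genes (38.2%), by 7 of the 60 reverse genes (11.7%) and by 6.04% of the genes in the window. Over the 53 genes with a value above 0 in replicate 2, the ratio of replicate 1 to replicate 2 ran from 2.04 to 9.17 with a median of 3.05. The reverse ratio ran from 2.00 to 7.48 with a median of 2.44. A ratio of at least 4 was seen in 18 of the 55 genes and in 5 of the 60 reverse genes.

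**Figure D1:**
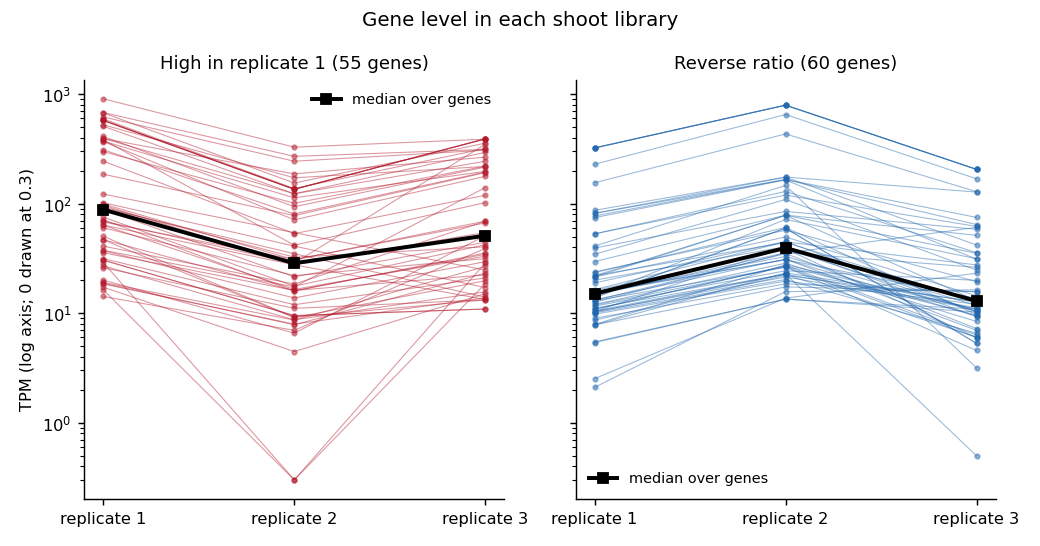
TPM (log axis) of each gene in the 3 shoot libraries, with 1 thin line per gene the median over genes in black and values of 0 drawn at the bottom of the axis, for the 55 genes high in replicate 1 (left) and the 60 genes with the reverse ratio (right). The median of the left set is 87.9, 28.5 and 50.9 TPM in replicates 1, 2 and 3, and that of the right set is 15.1, 39.3 and 12.9 TPM.

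The most abundant of the 55 genes by median were 4 genes that cannot be told apart. TraesCS3B02G188400, TraesCS3D02G498600, TraesCS7A02G262300 and TraesCS7B02G360000 each had a transcript of 201 bases, and each had 574, 135 and 389 TPM in replicates 1, 2 and 3. Identical values in 4 genes are read here as 1 measurement. As shared reads are divided among copies, each value may be only a share of that measurement. The window was applied to each gene alone, and the joint level was not computed. TraesCS4A02G017100 and TraesCS4B02G287000, of 111 bases, also shared all their values, at 30.4, 9.48 and 10.9 TPM. Counted once per set of identical values, the 55 genes made up 51 measurements and the 60 reverse genes 56. Values identical to those of another gene were found in 10.9% of the 55 genes, 10% of the 60 reverse genes and 0.713% of the window.

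TraesCS1D02G245900LC followed, a low-confidence gene of 396 bases with 905, 327 and 387 TPM in replicates 1, 2 and 3. TraesCS1D02G179900, a high-confidence gene on the same chromosome with a transcript of 1091 bases, had 677, 270 and 312 TPM. In TPM, replicate 1 stood alone in both genes and replicates 2 and 3 lay close together. Their ratios of replicate 3 to replicate 2 were 1.18 and 1.16, where the median over the window was 0.653.

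The largest concentration of the set was at the start of chromosome 1A. The stretch held 16 genes, all those numbered up to TraesCS1A02G001500 on this chromosome, 15 of them high-confidence and 1 low-confidence. The same numbers occur in both classes, as in TraesCS1A02G000300 and TraesCS1A02G000300LC. The low-confidence gene is thus counted in by its number, and its place among the high-confidence genes is not known. Its end was set after the values had been seen, so that the shared pattern within it is a description only. Of these 16 genes, 10 belonged to the 55, 2 were too abundant for the window and 4 too scarce. In 16 of the 16 genes replicate 1 was at least 2 times replicate 2, and in 16 of the 16 the level in replicate 3 fell between the other two.

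TraesCS1A02G000900 had the highest counts of the stretch. It had 673 TPM in replicate 1, 154 TPM in replicate 2 and 356 TPM in replicate 3, on 149640, 32747 and 74500 estimated counts. TraesCS1A02G000400 had 592, 137 and 318 TPM in the same order of replicates. Replicate 1 was highest and replicate 2 lowest in each, and the ratio of replicate 1 to replicate 2 was 4.37 in the first gene and 4.31 in the second.

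TraesCS1A02G000200 had 507, 123 and 293 TPM in replicates 1, 2 and 3. TraesCS1A02G001400 had 309, 80.4 and 194 TPM, and TraesCS1A02G001100 had 244, 53.1 and 119 TPM. Lower levels with the same order of libraries were found in TraesCS1A02G000300 (96.4, 27.7 and 54.4 TPM), TraesCS1A02G001000 (63.4, 16.4 and 33.1 TPM) and TraesCS1A02G000100 (46.6, 9.10 and 19.7 TPM). Over this range of levels, the ratios of replicate 1 to replicate 2 lay between 3.48 and 5.12. TraesCS1A02G001500, at the end of the stretch, had 382, 41.6 and 102 TPM and the highest finite ratio of the set, 9.17 (95% counting interval 8.52 to 9.89).

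The remaining member of the stretch, TraesCS1A02G001200, was listed at 0 in replicate 2. It has a transcript of 261 bases and had 28.9 TPM in replicate 1 and 18.5 TPM in replicate 3, on 244 and 149 estimated counts. With a floor of 3 estimated counts in replicate 2, worth 0.387 TPM for this transcript, in place of 0, the ratio of replicate 1 to replicate 2 was 74.7. The exact 95% counting interval, made from the counts of both libraries, had a lower limit of 60.4. The only other gene of the set at 0 in replicate 2 was TraesCS3D02G198300, of 144 bases, with 16.3 TPM in replicate 1 and 28.6 TPM in replicate 3. With the same floor of 3 counts its ratio was 11.3, on 35.4 estimated counts in replicate 1, and the lower limit of its 95% counting interval was 8.61. The floors and the intervals cover counting error only. Whether reads of these short genes were assigned to other transcripts in replicate 2 was not tested.

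The genes of the stretch that fell outside the window showed the same order of libraries. TraesCS1A02G000300LC had 2388 TPM in replicate 1, 710 TPM in replicate 2 and 1544 TPM in replicate 3, and TraesCS1A02G000700 had 1845, 654 and 1362 TPM. On the scarce side, TraesCS1A02G000500 (24.4, 4.22 and 8.99 TPM) and TraesCS1A02G001300 (22.5, 3.01 and 9.12 TPM) had medians just under 10 TPM. TraesCS1A02G000600 and TraesCS1A02G000800 stayed under 3 TPM in every library and rest on under 30 estimated counts each.

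The pattern was not seen in the genes that followed, from whose values the end of the stretch had been set. TraesCS1A02G001600, the next gene, had at most 4.02 estimated counts in any library, too few to place the end exactly. TraesCS1A02G001800 had 54.0, 58.2 and 37.9 TPM in replicates 1, 2 and 3. Among the 10 genes from there to TraesCS1A02G002700 with a median of at least 1 TPM, the ratio of replicate 1 to replicate 2 lay between 0.754 and 1.08, and replicate 3 was below replicate 2 in each, with ratios of 0.368 to 0.877. TraesCS1A02G002400LC and TraesCS1A02G002500LC are among these 10 by number only. Of the remaining 474 genes of chromosome 1A in the window, only 1 belonged to the set, TraesCS1A02G289800, and their median log2 ratio of replicate 1 to replicate 2 was -0.06. The tables do not say what these 16 genes encode or whether copies of their sequences exist elsewhere in the nuclear or organelle genomes, and whether reads of such copies were counted here was not tested. The summed level of the 16 genes was 7225 TPM in replicate 1, 2015 TPM in replicate 2 and 4434 TPM in replicate 3.

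**Figure D2:**
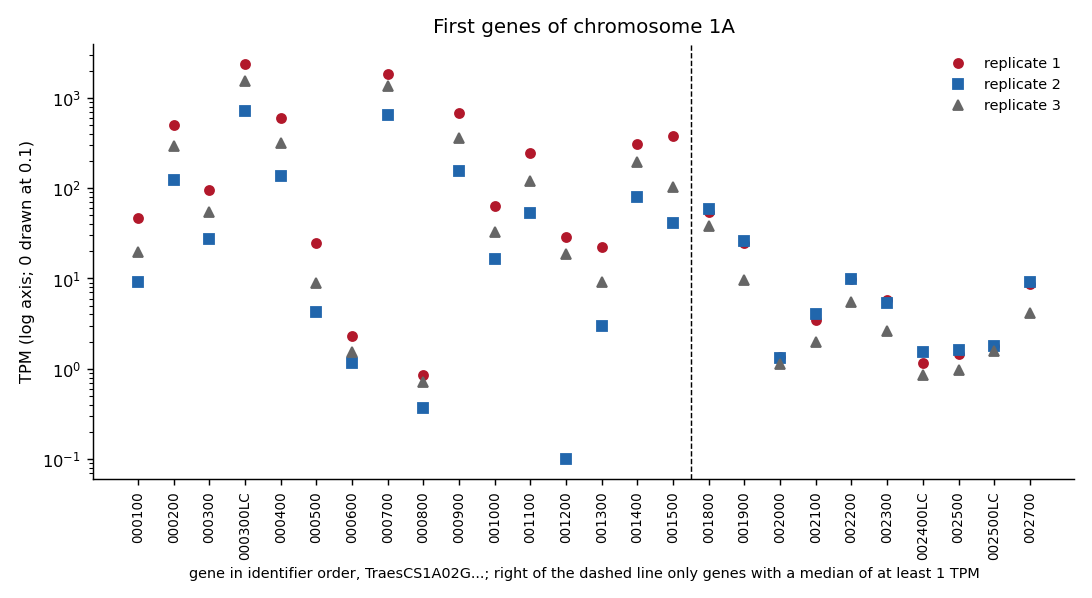
TPM (log axis) of the first genes of chromosome 1A by identifier number, with 1 symbol per library and a dashed line placed after the values had been seen. Low-confidence genes (LC) are placed by number only, and their position among the high-confidence genes is not known. In the 16 genes left of the dashed line replicate 1 is at least 2 times replicate 2 with replicate 3 between them, and in the 10 genes right of it the ratio of replicate 1 to replicate 2 is 0.754 to 1.08.

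Over the 11 genes of the stretch with at least 100 estimated counts in replicate 2, the ratio of replicate 1 to replicate 2 ran from 2.82 to 9.17 and that of replicate 3 to replicate 2 from 1.97 to 2.45. Both ratios inside these ranges were found in 8 other genes of the window, on 7 chromosomes, a count made after the values of the stretch were seen. TraesCS6B02G117900, the highest of them in replicate 1, had 410, 93.6 and 215 TPM in replicates 1, 2 and 3. TraesCS4D02G001800LC had 393, 123 and 243 TPM, and TraesCS1B02G274400 had 297, 101 and 220 TPM. TraesCS5A02G555500 had 87.9, 21.4 and 44.4 TPM. TraesCS5B02G328100LC, TraesCS7A02G021500LC, TraesCS4A02G601600LC and TraesCS5A02G199500 made up the rest, at 46.8 to 99.1 TPM in replicate 1, 15.9 to 30.6 TPM in replicate 2 and 34.4 to 69.1 TPM in replicate 3. These 8 genes were not neighbours of each other and 4 of them were low-confidence.

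Replicate 3, which entered the rule only through the median, lay between the other libraries in 42 of the 55 genes (76.4%), below replicate 2 in 4 and above replicate 1 in 9. Among the 60 reverse genes it lay between them in 20 (33.3%), below the lower library, replicate 1, in 37 and above replicate 2 in 3. In either set the median barred replicate 3 from lying below a library under 10 TPM or above one of 500 TPM or more. With the mean of replicates 1 and 2 in place of the median, replicate 3 took no part in the choice. It then lay between in 48 of 67 genes high in replicate 1 (71.6%) and in 25 of 109 reverse genes (22.9%). The comparison is with the reverse genes, since replicates 1 and 2 are at least 2-fold apart in both sets, whereas replicates 1 and 2 of most genes leave little room between them. Replicate 3 was below both other libraries in 83.1% of the genes in the window. With each library divided by its median over the window, replicate 3 lay between in 36 of the 55 genes and in 20 of the 60 reverse genes. With estimated counts scaled by median-of-ratios size factors, 69 genes met the rule and replicate 3 lay between in 34 of them (49.3%), beside 17 of the 45 reverse genes found in this way (37.8%). The gap between the sets was thus much smaller under this scaling. The 42 genes comprised 10 of the start of chromosome 1A, the 8 with like ratios and 24 others. The ratios by which the 8 were picked place replicate 3 between the other libraries. On the log scale replicate 3 was nearer to replicate 1 in 27 of the 42 genes and nearer to replicate 2 in 15. Among the 24 others alone, it was nearer to replicate 1 in 11 and nearer to replicate 2 in 13.

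**Figure D3:**
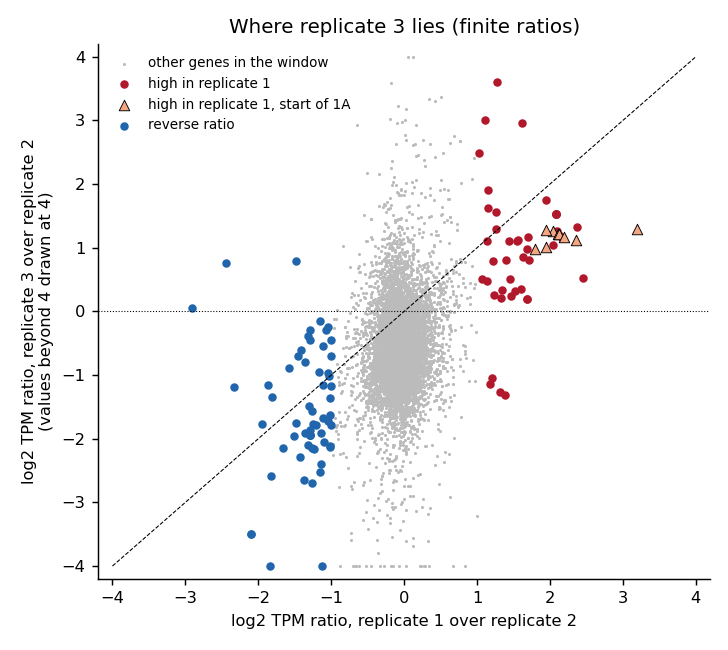
Log2 TPM ratio of replicate 3 over replicate 2 against that of replicate 1 over replicate 2, 1 point per gene of the window with finite ratios. On the dashed line replicate 3 equals replicate 1 and on the dotted line it equals replicate 2, so that the 42 genes with an intermediate replicate 3 lie between these lines on the right (1 of them, at 0 in replicate 2, is not drawn), as do 20 of the reverse genes on the left.

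For the 9 genes with replicate 3 above replicate 1, the rule had not asked that replicate 3 exceed replicate 1. It had asked for at least 10 TPM in replicate 3 wherever replicate 2 was under 10 TPM. Among the 9, replicate 2 was that low in TraesCS1D02G163900, TraesCS4A02G107100, TraesCS3D02G198300, TraesCS5D02G345600 and TraesCS5D02G413600. TraesCS2D02G062600LC had 348 TPM in replicate 3, against 69.1 TPM in replicate 1 and 28.5 TPM in replicate 2. TraesCS7B02G351900 had 140, 37.4 and 17.3 TPM in replicates 3, 1 and 2. TraesCS1D02G163900 had 38.9, 14.2 and 6.95 TPM and TraesCS4A02G107100 had 50.9, 20.01 and 6.56 TPM in the same order. In these 4 genes replicate 3 was at least 2 times replicate 1, or 7.27% of the 55 genes beside 2.02% of the window. The other 5 were TraesCS2B02G460700, TraesCS3A02G458900, TraesCS3D02G198300, TraesCS5D02G345600 and TraesCS5D02G413600, with 23.1 to 191 TPM in replicate 3 and 16.3 to 185 TPM in replicate 1. In TPM, TraesCS3A02G458900 hardly differed between replicates 3 and 1, at 191 and 185 TPM, and only replicate 2 stood apart, at 77.7 TPM. Its ratio of replicate 3 to replicate 1 was 1.03, where the median over the window was 0.669.

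The 4 genes with replicate 3 below replicate 2 had the libraries in the order 1, 2, 3. This place of replicate 3, below both others, was also that of 83.1% of the window. TraesCS4D02G203800 had 122, 54.2 and 24.7 TPM in replicates 1, 2 and 3. TraesCS4A02G101700 had 102, 40.9 and 17.1 TPM, and TraesCS4B02G202900 had 90.9, 34.8 and 13.9 TPM. These 3 genes lie on the 3 chromosomes of homoeologous group 4, and their ratios of replicate 1 to replicate 2 were 2.25, 2.49 and 2.61 and of replicate 3 to replicate 2 were 0.456, 0.418 and 0.400. The tables do not say whether they are homoeologs. The fourth was TraesCS1A02G289800, of 180 bases, with 63.5, 27.6 and 13.3 TPM. In these 4 genes replicate 2 was at least 2 times replicate 3, a difference that 18.2% of the genes in the window also showed.

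Close to the limit of 2, the set had no gap. The ratios of replicate 1 to replicate 2 just inside it were 2.04 in TraesCS1D02G163900, 2.10 in TraesCS3D02G316900LC (392 TPM in replicate 1 and 187 TPM in replicate 2) and 2.16 in TraesCS7B02G351900. Just outside it were TraesCS7D02G235100, TraesCS3A02G107200 and TraesCS3B02G185500, with ratios of 1.9997, 1.97 and 1.97. The first of these had 24.3 TPM in replicate 1 and 12.2 TPM in replicate 2.

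Short transcripts took a larger share of both sets than of the window. The main transcript of a gene, the one with the highest mean TPM, had a median length of 478 bases in the 55 genes, 674.5 bases in the 60 reverse genes and 1242.5 bases in the window. A main transcript under 600 bases was found in 29 of the 55 genes (52.7%, exact 95% interval 38.8 to 66.3), in 29 of the 60 reverse genes (48.3%, 35.2 to 61.6) and in 18.4% of the window. The intervals of the 2 sets overlap. They cover counting error over genes, which are not replicates. Under 300 bases, 2.98% of the window genes were high in replicate 1 and 3.15% had the reverse ratio, while from 1200 to under 2400 bases the shares were 0.154% and 0.242%. In the class of 2400 bases and over, 6 genes were high in replicate 1 (0.459%) and 2 had the reverse ratio (0.153%), and 4 of the 6 lay at the start of chromosome 1A. Outside that stretch the median length of the set was 378 bases.

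**Figure D4:**
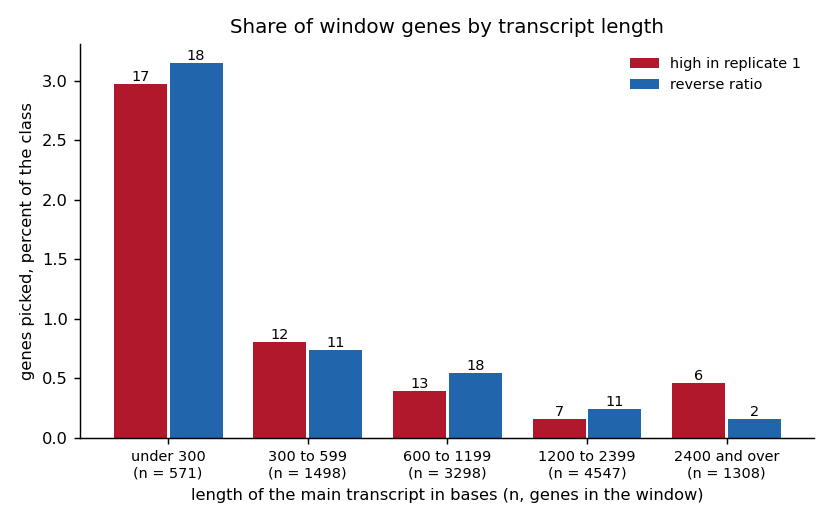
Genes high in replicate 1 and genes with the reverse ratio, as a percentage of the window genes in each class of main transcript length, with the number of genes above each bar. Both shares are highest under 300 bases, at 2.98% and 3.15%, and the sets differ most in proportion at 2400 bases and over, with 6 and 2 genes.

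A TPM ratio can depart from a ratio of reads because the usable length of a transcript was estimated in each library. For the longest transcript the usable length was 167.6 bases under the full length in replicate 1, 176.2 bases in replicate 2 and 164.9 bases in replicate 3. Among the 55 genes the ratio of usable lengths, replicate 1 over replicate 2, was 0.976 to 1.04. The ratio of estimated counts scaled to the library total was 1.03 to 1.12 times the TPM ratio. Most of this factor was a shift of all genes: over the window the median ratio of replicate 1 to replicate 2 was 1.04 in depth-scaled counts and 0.972 in TPM.

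Most of the genes in either set had a single annotated transcript, 53 of the 55 (96.4%) and 56 of the 60 (93.3%), against 73.2% of the window. Of the 2 exceptions high in replicate 1, TraesCS1B02G274400 rested on its transcript of 3132 bases, with 297, 100 and 219 TPM in replicates 1, 2 and 3. Its other transcript, of 3144 bases, had 0.545, 0.531 and 0.332 TPM. In TraesCS4B02G202900 the transcript of 656 bases had 76.3, 26.8 and 10.2 TPM and that of 397 bases had 14.6, 8.06 and 3.72 TPM, so that the order of the libraries was the same in both while the ratio of replicate 1 to replicate 2 passed 2 only in the first.

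Low-confidence genes made up 11 of the 55 genes (20%, exact 95% interval 10.4 to 33.0), 12 of the 60 reverse genes (20%, 10.8 to 32.3) and 15.9% of the window. Their main transcripts were shorter than those of the high-confidence genes of the same set, with medians of 342 and 701 bases in the genes high in replicate 1 and of 295.5 and 739 bases in the reverse genes. Replicate 3 lay between the other libraries in 10 of the 11 low-confidence and 32 of the 44 high-confidence genes high in replicate 1. Among the reverse genes this held for 2 of 12 low-confidence and 18 of 48 high-confidence genes. TraesCS5A02G057000LC, of 204 bases, had 618, 243 and 307 TPM in replicates 1, 2 and 3, and TraesCS3B02G622700LC, of 108 bases, had 25.9, 11.04 and 13.2 TPM on 34, 14 and 15 estimated counts.

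The 55 genes were spread over 19 of the chromosomes, with none on 2A or 6A, and the 60 reverse genes over 21. Chromosome 1A held 11 of the 55 genes, or 2.27% of its 484 genes in the window, and 2 of the reverse genes (0.413%). Next came chromosome 4A with 5 genes (1.04%) and chromosome 5D with 5 genes (0.845%). Among the reverse genes chromosome 3D was highest, with 8 genes (1.46%), and the chromosomes of group 3 held 6 of the 55 genes (10.9%) and 19 of the 60 reverse genes (31.7%), beside 15.3% of the window. By subgenome A, B and D, there were 22, 15 and 18 genes high in replicate 1 and 21, 15 and 24 reverse genes, while the window was divided into 32.6%, 35.5% and 31.9%. Of the 22 genes of subgenome A, 10 were those at the start of chromosome 1A. Neighbours in the identifier order were found in 3 runs with 10 genes in all, every one at the start of chromosome 1A. The reverse genes had 3 runs of 2 genes, 1 of which, TraesCS7A02G073000 with TraesCS7A02G073100, had identical values (13.9, 59.6 and 5.28 TPM in replicates 1, 2 and 3).

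The 55 genes were spread more widely in counting depth than the window. The 55 genes had a median of 1783 estimated counts in the median replicate, the 60 reverse genes 645 and the window 1670. The quartiles were 430 and 5869 estimated counts in the 55 genes and 869 and 3057 in the window. Under 100 estimated counts were 6 of the 55 genes, 4 of the reverse genes and 1.70% of the window. The exact 95% counting intervals given beside single ratios describe their precision, and they take estimated counts as if they were whole reads and leave out the error of dividing shared reads. In TraesCS1B02G087100, of 261 bases, the ratio was 5.49 with an interval of 4.26 to 7.16, at 50.2, 9.16 and 13.2 TPM in replicates 1, 2 and 3. In TraesCS7D02G119200 it was 5.19 with an interval of 4.87 to 5.54, at 368, 71.0 and 177 TPM.

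**Figure D5:**
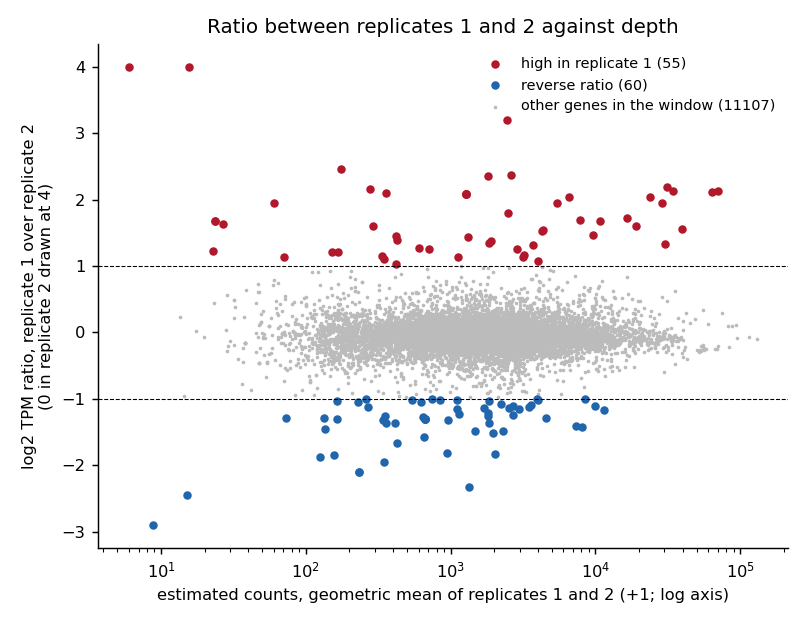
Log2 TPM ratio of replicate 1 over replicate 2 against the geometric mean of their estimated counts plus 1 (log axis), 1 point per gene in the window, with dashed lines at a ratio of 2 in either direction. The 55 genes high in replicate 1 have a median of 1783 estimated counts in the median replicate (range 12.9 to 74500), and the 60 reverse genes a median of 645.

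The reverse genes had their own extremes. The highest levels belonged to TraesCS1A02G385000, TraesCS2A02G470800, TraesCS3A02G343800 and TraesCS5D02G010100, each of 111 bases and each with 322, 791 and 205 TPM in replicates 1, 2 and 3. Like the 4 genes of 201 bases in the other set, they are read here as 1 measurement, of which each value may be only a share. TraesCS3A02G233600 had the largest reverse ratio among those with at least 50 estimated counts in replicate 1, at 14.3, 71.6 and 31.4 TPM, or 5.03-fold (interval 4.61 to 5.49). TraesCS7B02G350200 had 10.3, 39.9 and 11.7 TPM. The larger reverse ratios, up to 7.48, were on under 10 estimated counts in replicate 1.

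Outside the window the balance of the 2 directions changed with level. Among the 189 genes with a median of at least 500 TPM, 17 were at least 2 times higher in replicate 1 than in replicate 2 (8.99%) and 1 had the reverse ratio (0.529%). The 17 genes were 14 distinct measurements, none longer than 972 bases, with replicate 3 between the other libraries in 17 of the 17. TraesCS6B02G250500, of 246 bases, was the most abundant, with 20639 TPM in replicate 1, 6282 TPM in replicate 2 and 13645 TPM in replicate 3. Among the 38617 genes from 1 to under 10 TPM the shares were 0.720% and 2.12%, with the reverse ratio the more frequent.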

How the data were processed

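Shoot RNA of 3 biological replicates of 1 condition was used. Per the labels, reads were trimmed with Trimmomatic 0.36, and the authors quantified transcripts with kallisto (version not given in the sources used here) on a set of IWGSC RefSeq v1.1 gene models that kept, of the low-confidence models, those overlapping histone mark peaks, and no unanchored scaffolds. The deposited tables give every transcript's estimated count and TPM, both as the authors' quantification made them, with its full and effective (usable) length. Here TPM and estimated counts were summed over the transcripts of a gene. Estimated counts were rounded for the exact (Clopper-Pearson) 95% counting intervals, which were rescaled to TPM. The selection step was checked only for picking planted changes in simulated counts with counting error alone. That check does not measure how far real replicates differ. No test between conditions was possible, and none was made over genes.

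The set, the lists and the thresholds were chosen with earlier results of these data known. Named genes are those with the highest median TPM, the largest ratio (at least 50 estimated counts in the lower library), the most extreme replicate 3, the nearest ratios to the limit and the longest run of neighbours, and the reverse genes with the highest median TPM or the largest ratio. Others were named after their values were seen. No gene names, genome coordinates or sequences were used, as the reference table did not pair its entries with these identifiers, and the planned groups by product name and tissue markers were not run. Alternatives were 13 planned settings, and 2 more that were chosen once the data had been seen. Tables were handled with pandas 2.3.3 and numpy 2.4.6 under Python 3.11.15, intervals came from scipy 1.17.1, and plots from matplotlib 3.10.9.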

Additional observations from a re-analysis of the deposited data

How the results depend on the processing

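In 98 of 118 values under 15 alternatives, counts stayed within 1.5 times and shares within their exact 95% interval. The other 20 follow, with the genes high in replicate 1 before the reverse genes. A ratio of at least 1.5 gave 164 and 205 genes, and one of at least 3 gave 30 and 11. Replicate 3 was then between the others in 48.8% and 93.3% of the genes high in replicate 1, and at a ratio of at least 3 the share under 600 bases was 72.7% of the reverse genes. A median from 5 TPM gave 87 and 144 genes, and one from 20 TPM gave 27 reverse genes. With no limits on the median there were 7546 and 11143 genes, most of them scarce, with 32.8% and 31.8% under 600 bases, 39.1% and 40.7% low-confidence, and replicate 3 between in 35.5% of those high in replicate 1. With median-of-ratios size factors this last share was 49.3% (34 of 69 genes), beside 37.8% of 45 reverse genes. The cause of these shifts was not tested. Without replicate 3 there were 67 and 109 genes, with 71.6% and 22.9% having replicate 3 between, 52.2% and 33.0% under 600 bases and 20.9% and 18.3% low-confidence. The low-confidence share was not computed for high-confidence genes alone, and replicates 1 and 2 could not be left out, since the rule is their ratio. In 2 settings chosen after seeing the data, leaving out the start of chromosome 1A left 45 and 60 genes and counting identical values once left 51 and 56, with every share within its interval. No paired analysis was possible because the series has a single group. Depth limits the 2 genes at 0 in replicate 2 and the 6 genes under 100 estimated counts.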
